A study of Homo sapiens with 12 samples.

Results

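The genes described here are 10 that act in mitosis: the Aurora kinases AURKA and AURKB, the Polo-like kinases PLK1 and PLK4, the spindle checkpoint proteins BUB1, BUB1B (BubR1), TTK (Mps1) and MAD2L1 (Mad2), the NIMA-related kinase NEK2 and the kinase PBK. They are listed by symbol, and all 10 were found among the 62069 genes of the count table. All RNA came from 1 established line, IMR90 ER:RAS at passage 13. These lung fibroblasts of human origin carry RAS fused to the oestrogen receptor, so that 4-hydroxytamoxifen (4OHT) switches RAS on and starts oncogene-induced senescence (OIS). The 4 groups, of 3 libraries each, were cells without 4OHT (non-induced), cells given 100 nM 4OHT (induced), and cells given 4OHT that also carried a short hairpin RNA against the nuclear transport receptor XPO7 (induced + shXPO7_3 and induced + shXPO7_5). All libraries, the non-induced ones included, are labelled day 5, which is a day of induction only where 4OHT was given. The sample records give 7 days of culture and a medium change on day 4 for all of them. The study's text describes the cells without an XPO7 hairpin as transduced with a control vector. Libraries of a group are told apart by a letter (T, A, B or C), and nothing in the sources says whether they came from separate cultures. The p-values therefore cover library-to-library spread alone, and that spread may be technical.

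The Aurora and Polo-like kinases time the steps of mitosis. AURKA and PLK1 work at the centrosomes as the spindle forms, AURKB is the enzyme of the chromosomal passenger complex that corrects faulty attachments of chromosomes, and PLK4 starts the duplication of centrioles. TTK, BUB1, BUB1B and MAD2L1 are parts of the spindle checkpoint, which keeps the anaphase-promoting complex (APC/C) inactive until every chromosome is attached. Messenger RNAs of most of these genes are made late in the cell cycle, in G2 and M phase, under transcription factors such as B-MYB (MYBL2) and FOXM1, so fibroblasts that have left the cell cycle hold little of them.

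Library totals lay between 28534141 and 60397769 counts, and 15284 genes had enough counts to be tested, including all 10. Levels are given as CPM, the counts of a gene scaled to library size after TMM normalization, and differences come from edgeR's quasi-likelihood test over all genes tested. A gene was called when its p, adjusted over those genes, was under 0.05. XPO7 itself stood at 137 ± 8.81 CPM (SD, n = 3) in induced cells, at 27.7 ± 1.14 with shXPO7_3 and at 52.2 ± 1.62 with shXPO7_5, so both knockdown labels match the target. Sums over marker lists are given as CPM before TMM scaling. The 9 fibroblast markers summed to 47300 to 54800 CPM in non-induced and 39100 to 45100 CPM in induced libraries, with 5 of 9 called lower under induction, and to 37600 to 48000 CPM in the hairpin libraries. The 6 epithelial markers summed to 72.8 to 87.0 CPM in non-induced and 39.7 to 57.8 CPM in 4OHT libraries, most of it KRT18 (30.6 to 45.4) and KRT19 (1.08 to 37.5), and 3 of the 4 tested were called lower under induction. Of 4 endothelial markers, PECAM1 and CDH5 had no count, while VWF (1.79 to 4.09 CPM) and KDR (0.178 to 1.08 CPM) had some in every library. The 4 leukocyte markers summed to at most 0.358 CPM, with CD3E at 0. The part of these markers in the results was not tested. Summed CPM of 4 proliferation genes (MKI67, TOP2A, PCNA and MCM2) was 636 to 834 in non-induced cells and 136 to 174 in the 9 libraries given 4OHT. In bulk RNA, fewer dividing cells cannot be told apart from less RNA per cell.

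Because the genes moved together, their promoters are shown at the short elements known from G2/M genes. RefSeq promoter windows of 300 bases (250 before and 50 after the start of transcription, GRCh38.p14) were at hand for 7 of the 10 genes. Both strands were searched for the cell cycle genes homology region (CHR; TTTGAA or TTCGAA), the binding site class of the MuvB complexes, and for the CCAAT box (CCAAT), which NF-Y binds. The stretches below are part of those found, with the elements in capitals, read 5′ to 3′ along the gene's strand. Not printed are the sites of PLK4, the CCAAT box of MAD2L1 at -229 and that of NEK2 at -66. The PLK1, BUB1B and AURKB stretches lie before the RefSeq start but within the gene's span in GENCODE 29, the MAD2L1 stretch lies after the start, and the CHR of BUB1 at the start.
PLK1, CCAAT box, chr16:23678804-23678833, plus strand: aaatccccgcggCCAATcagtggcgcgcag
PLK1, CHR, chr16:23678848-23678877, plus strand: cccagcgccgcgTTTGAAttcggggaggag
BUB1B, CHR, chr15:40161034-40161063, plus strand: gggaccgttaaaTTTGAAacttggcggcta
MAD2L1, CHR, chr4:120066807-120066836, minus strand: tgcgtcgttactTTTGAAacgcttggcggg
BUB1, CHR, chr2:110678045-110678074, minus strand: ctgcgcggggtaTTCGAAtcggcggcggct
BUB1, CCAAT box on both strands, chr2:110678113-110678142, minus strand: ATTGGccaaccttctgccgccgccaCCAAT
NEK2, CCAAT box, chr1:211675638-211675667, minus strand: gcccaccgcctgCCAATagactgcgagatc
AURKB, CCAAT box read on the other strand, chr17:8210361-8210390, minus strand: accagcgcccagATTGGggctagtgtgctg

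In PLK1 the CHR letters began 29 bases before the start and the CCAAT box 73 bases before it. The CHR of BUB1B began 23 bases before the start, whereas those of BUB1 and MAD2L1 began at bases 2 and 25 after it. BUB1 had its CCAAT boxes at -79 and -54, and NEK2 at -66 and -34. A CHR was found in 5 of the 7 genes (BUB1, BUB1B, MAD2L1, PLK1 and PLK4) and in 19.5% of 27305 genes with a window. The CCAAT box was found in 6 of the 7 (BUB1B had none) and in 39.7% of all genes. Both elements stood in the same window in 3 genes (BUB1, MAD2L1 and PLK1), against 7.85% of all genes. E2F sequences, 4 in all (TTTCCCGC, TTTGGCGC, TTTCGCGC and TTTGCCGC) had no match in these windows, against 3.99% of all genes. With bases after the start left out, the CHR count fell from 5 to 2 of the 7 genes (BUB1B and PLK1), against 17.2% of all genes. These matches describe letters in a window and say nothing of whether a factor binds there.

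All 10 genes fell when RAS was switched on, where 26.1% of the genes tested were called lower. The median log2 fold change of the 10 was -2.81, beside -0.007 for all genes tested. Adjusted p ran from 5.98e-10 to 3.27e-05 (edgeR). In every one of the 10 genes the 3 induced libraries lay below the 3 non-induced libraries, a pattern seen in 31.4% of genes tested. An exact permutation test of 3 against 3 libraries cannot go below p = 0.1 (two-sided), and each of the 10 genes reached that value.

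**Figure D1:**
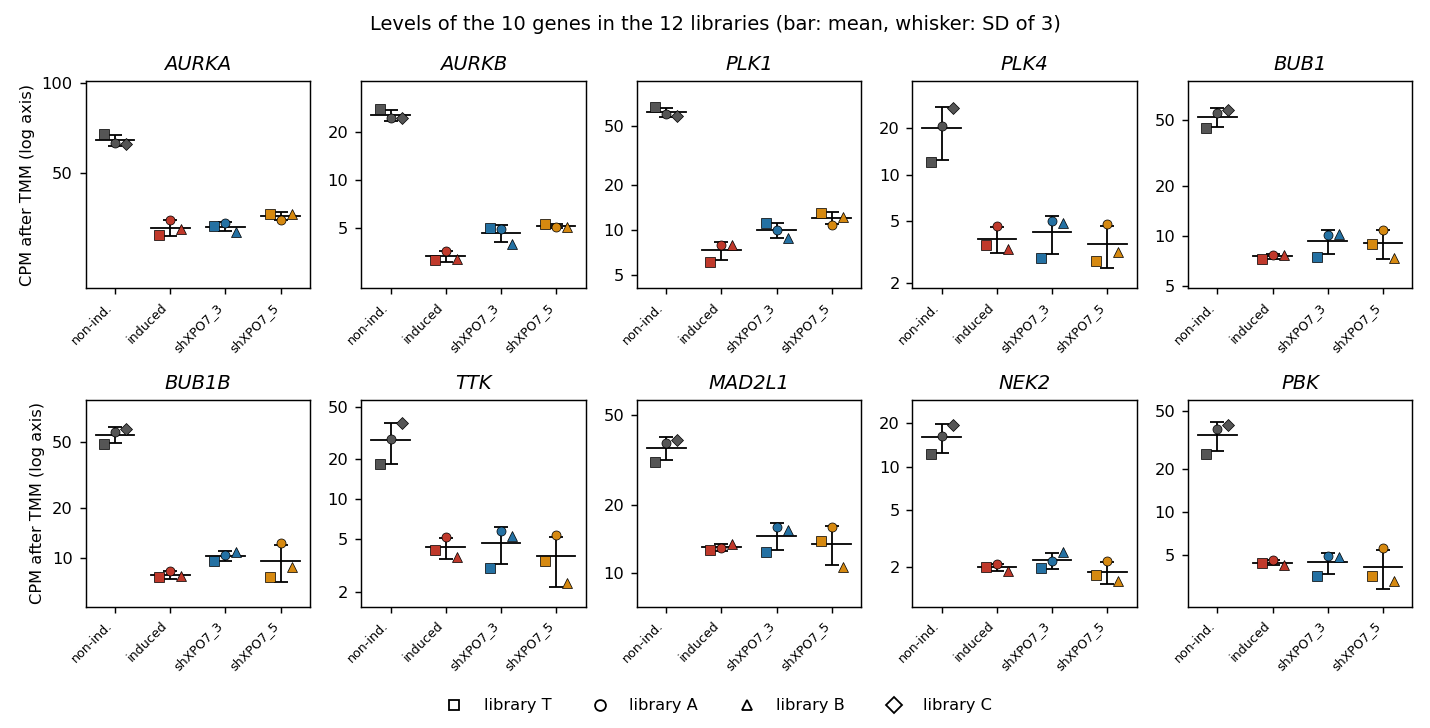
Levels of the 10 genes in the 12 libraries, in CPM after TMM on log axes. Symbols are libraries by letter, long bars the mean and whiskers the SD of 3 libraries; the non-induced libraries lie above all 4OHT libraries in each panel, and AURKA and MAD2L1 keep the largest part of their level.

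Among the Aurora kinases, AURKB and AURKA differed widely in size of change. AURKB stood at 27.6, 24.2 and 24.2 CPM in the non-induced libraries T, A and C and at 3.17, 3.62 and 3.23 CPM in the induced libraries T, A and B. The groups were far apart, and the log2 fold change was -2.93 ± 0.11 (SE, edgeR adjusted p = 5.98e-10), which left 13.1% of the non-induced level. AURKA was at 67.5, 62.9 and 62.6 CPM in non-induced and at 31.0, 34.9 and 32.5 CPM in induced libraries. Its log2 fold change of -0.97 ± 0.070 (edgeR adjusted p = 2.12e-07) left 51.0% of the level, the largest share among the 10. The CPM ratio of AURKB to AURKA within a library was accordingly 0.385 to 0.409 in non-induced cells and 0.0993 to 0.104 in induced cells.

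PLK1, the kinase needed for mitotic entry, spindle assembly and cytokinesis, had the lowest log2 fold change of the 10 in this fit, within the error of NEK2 and PBK. Its level was 66.6, 59.9 and 58.5 CPM in non-induced libraries and 6.12, 7.90 and 7.93 CPM in induced libraries. That is a log2 fold change of -3.07 ± 0.13 (edgeR adjusted p = 1.37e-09), or 11.9% of the non-induced level. With GC and length correction NEK2 (-3.08) and PBK (-3.05) stood below PLK1 (-2.97). PLK4 was more uneven, at 12.1, 20.7 and 27.0 CPM in the non-induced libraries T, A and C and at 3.53, 4.68 and 3.33 CPM in the induced libraries. Its non-induced libraries differ by more than 2-fold among themselves, yet the lowest still lay above all induced ones (log2 fold change -2.39 ± 0.30, edgeR adjusted p = 3.27e-05).

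The checkpoint kinases and their partner fell to a similar extent, with MAD2L1 apart. BUB1, which marks centromeric chromatin and recruits other checkpoint proteins, was at 44.8, 55.5 and 57.7 CPM in non-induced libraries and at 7.24, 7.66 and 7.71 CPM in induced libraries. BUB1B, which as part of the mitotic checkpoint complex blocks APC/C, was at 48.5, 57.4 and 59.99 CPM and at 7.60, 8.36 and 7.73 CPM. Their log2 fold changes were -2.80 ± 0.16 and -2.81 ± 0.15, and the CPM ratio of BUB1 to BUB1B stayed between 0.915 and 0.997 in these 6 libraries. TTK, the kinase that starts checkpoint signalling at unattached kinetochores, was at 18.4, 28.7 and 37.7 CPM in non-induced and 4.15, 5.21 and 3.67 CPM in induced libraries (log2 fold change -2.71 ± 0.33). MAD2L1, the protein that binds CDC20 to hold APC/C off, stood at 30.9, 37.5 and 38.9 CPM and then at 12.6, 12.97 and 13.4 CPM. Its log2 fold change was -1.46 ± 0.15 (edgeR adjusted p = 4.44e-06), and 36.4% of its level was left.

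NEK2, a kinase of centrosome separation, was at 12.3, 16.3 and 19.5 CPM in non-induced and at 1.99, 2.09 and 1.88 CPM in induced libraries. The induced values rest on 59 to 93 counts a library. PBK, a mitotic MAPKK-like kinase, was at 25.3, 37.7 and 40.3 CPM and then at 4.37, 4.64 and 4.26 CPM. Log2 fold changes were -3.02 ± 0.18 for NEK2 and -2.96 ± 0.22 for PBK. The other 8 genes, AURKA and MAD2L1 aside, kept between 11.9% and 19.1% of the non-induced level.

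Levels of different genes can be set side by side only per length, here as CPM per kb of merged exons. On that scale AURKA led in every group, at 21.97 ± 0.951 (SD, n = 3) in non-induced and 11.2 ± 0.669 in induced cells. PBK (15.9 ± 3.69), PLK1 (12.96 ± 0.914), BUB1B (12.4 ± 1.34) and AURKB (11.3 ± 0.872) followed in non-induced cells, with neighbours closer than their spread. In induced cells the next after AURKA was MAD2L1 at 2.26 ± 0.0707, which had been the seventh of the 10 in non-induced cells at 6.22 ± 0.736. PLK4 (0.858 ± 0.163) and NEK2 (0.642 ± 0.0348) were the lowest in induced cells. This order rests on the length used. Merged exons of PLK1 add up to 4760 bases but its longest coding transcript to 2227, and for AURKB these are 2241 and 1254. For MAD2L1 they are 5748 and 5468, so per transcript length PLK1 and AURKB would stand higher relative to MAD2L1.

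The low-GC genes of the set were lowest in the T library of the non-induced group. Transcripts of PLK4 (38.4% GC), TTK (40.8%), NEK2 (41.8%) and PBK (40.3%) were lower in that library than in A and C, whereas PLK1 (57.3%) and AURKB (55.6%) were highest in it. Over all genes with a GC value, the Spearman correlation of GC content with a library's log ratio to the 12-library mean was 0.27 in non-induced T and between -0.21 and 0.0032 in A and C. With GC and length trends removed from each library, the 10 genes were again all called lower, with a median log2 fold change of -2.85. PLK4 then stood at -2.48 ± 0.17 and TTK at -2.78 ± 0.22.

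Genes that work with the 10 were counted in lists of textbook groupings, beside the 26.1% of all genes tested that were called lower and the 24.8% that were called higher under induction. In the list of the passenger complex and kinase activators, all 8 of 8 genes tested fell, with a median log2 fold change of -1.80. Survivin (BIRC5), the passenger subunit that binds at centromeres, changed by -3.15 ± 0.15 and borealin (CDCA8) by -2.92 ± 0.10 on the log2 scale. Shugoshin (SGO1), which protects centromeric cohesion, changed by -2.53 ± 0.18, and TPX2, the activator of AURKA, by -2.01 ± 0.078. The other 4 (INCENP, BORA, SGO2 and HASPIN) changed by -1.30 to -1.60.

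Of 10 checkpoint and kinetochore partners, 5 fell and 1 rose (median -0.35). KNL1, the kinetochore scaffold that BUB1 binds, changed by -2.66 ± 0.35, TRIP13, which remodels MAD2L1, by -1.87 ± 0.089, ZWINT by -1.50 ± 0.075 and KNTC1 by -1.16 ± 0.23 on the log2 scale. BUB3 fell by 0.3 on the log2 scale and MAD2L1BP rose by 0.78 (log2). In the APC/C list, 9 of 21 fell and 3 rose (median -0.21). The 4 with the largest changes were no core subunits: the activator CDC20 changed by -2.80 ± 0.14, the E2 enzyme UBE2C by -2.79 ± 0.094, separase (ESPL1) by -2.35 ± 0.13 and securin (PTTG1) by -2.11 ± 0.090. The 3 that rose were the subunits ANAPC5 (0.28), CDC16 (0.21) and CDC26 (0.42), all log2 fold changes.

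Of 8 mitotic entry kinases and antagonists, 5 fell and 2 rose (median -1.04). CDK1, the kinase that drives entry into mitosis, changed by -2.67 ± 0.25 and its inhibitory kinase PKMYT1 by -2.60 ± 0.15 on the log2 scale. MELK changed by -1.85 ± 0.14 and MASTL by -1.29 ± 0.18, WEE1 also fell (-0.80), and the PP2A regulators ENSA (0.64) and PPP2R2D (0.23) rose. Among 8 centriole partners of PLK4, 3 fell and none rose (median -0.53): STIL by -1.43 ± 0.14, CEP152 by -1.36 ± 0.38 and SASS6 by -0.85 ± 0.30, while CENPJ at -0.57 ± 0.24 was not called (edgeR adjusted p = 0.0681). The call of SASS6 was lost without induced A or B or non-induced A or C (log2 fold changes between -0.874 and -0.525), and CENPJ passed without non-induced T (-0.745).

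Paralogs of the 10 that lie outside the mitotic set went both ways: of 15, 13 were tested, 4 rose and 4 fell (median -0.21). PLK3 rose from 23.6 to 87.4 CPM (log2 fold change 1.89 ± 0.11) and PLK2 from 116 to 293 CPM (1.34 ± 0.081). Both are Polo-like kinases known as stress-response genes. Why PLK2 and PLK3 rose while PLK1 and PLK4 fell was not tested. As shares, the 4 of 13 in either direction are near those of all genes. NEK10 rose (1.70 ± 0.23), as did NEK4 (0.42), while NEK6 (-0.80 ± 0.090), NEK8 (-0.79), NEK9 (-0.23) and MAD2L2 (-0.41) fell. PLK5 and NEK5 had at most 1 and 6 counts in a library and were not tested.

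Transcription regulators of G2/M genes numbered 16, of which 7 fell and 1 rose (median -0.35). MYBL2, the B-MYB that works with MuvB, changed by -3.20 ± 0.14, FOXM1 by -2.78 ± 0.10 and the p107 gene RBL1 by -2.04 ± 0.21 on the log2 scale. The MuvB subunit gene LIN9 was at -0.79 ± 0.34 and not called (edgeR adjusted p = 0.0723). It passed without non-induced T (-0.982). NFYA, a subunit of the CCAAT-binding NF-Y, was the gene that rose (0.69).

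With GC and length correction more genes passed under induction, 31% of all genes tested lower and 33.1% higher. The lists then had 8 lower and 0 higher in the passenger complex, 6 and 2 among checkpoint partners, 10 and 5 in the APC/C list and 6 and 2 among entry kinases. Centriole partners of PLK4 had 6 lower and 0 higher, paralogs 5 and 4, and transcription regulators 12 and 3 (NFYA, LIN37 and E2F4 higher).

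Over the 12 libraries, the genes most like the mean of the 10 (Pearson correlation of log2 CPM, 10676 genes compared) were SKA3 at 0.9982, NUSAP1 at 0.9974, CCNA2 at 0.9969, NCAPG2 at 0.9965 and EPB41L2 at 0.9964. SKA3 and NUSAP1 act at the spindle, CCNA2 is cyclin A2 and NCAPG2 a condensin subunit. All 5 were ranked by correlation alone. EPB41L2, for which no mitotic role is given here, scored about as high (log2 fold change -1.23 ± 0.079 under induction). These correlations span the step between non-induced and 4OHT libraries, which form separate clusters. Within the 9 libraries given 4OHT, AURKB and PLK1 stayed close to each other (0.94), as did TTK and PBK (0.93), while PLK1 and TTK did not (-0.40). With GC and length trends removed, the values of these pairs were 0.92, 0.70 and 0.15. These are descriptions over libraries that share depth and base composition effects.

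With shXPO7_3 on top of 4OHT, none of the 10 genes was called higher (0.0916% of genes tested were). All 10 had a log2 fold change above 0, from 0.01 for AURKA and PBK to 0.47 for AURKB, with a median of 0.18. An unadjusted p under 0.05 (edgeR) was found for 3 genes (AURKB, PLK1 and BUB1B). In either direction, 979 of 15284 genes tested had such a p. The 3 genes had all knockdown libraries above all induced ones, as did 7.46% of genes tested. AURKB was at 4.99, 4.95 and 3.99 CPM in the shXPO7_3 libraries T, A and B, against 3.17 to 3.62 CPM in induced cells (log2 fold change 0.47 ± 0.11, edgeR adjusted p = 0.167). PLK1 was at 11.2, 10.1 and 8.83 CPM, against 6.12 to 7.93 CPM (0.45 ± 0.12, edgeR adjusted p = 0.294). BUB1B was at 9.495, 10.4 and 10.9 CPM, against 7.60 to 8.36 CPM (0.38 ± 0.15, edgeR adjusted p = 0.634). DESeq2 also called none.

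With shXPO7_5, AURKB and PLK1 rose, 2 of the 10 genes where 0.478% of genes tested were called higher. AURKB was at 5.32, 5.07 and 5.10 CPM in libraries T, A and B (log2 fold change 0.63 ± 0.11, edgeR adjusted p = 0.0285). That is 155% of the induced level. PLK1 was at 13.1, 10.9 and 12.2 CPM (0.72 ± 0.12, edgeR adjusted p = 0.0265), or 165% of the induced level. In both genes all shXPO7_5 libraries lay above all induced libraries, which 14.2% of genes tested did, and DESeq2 called the same 2 genes. Both calls were lost when any 1 of the 3 induced libraries or shXPO7_5 T or B was left out (adjusted p 0.0781 to 0.155, edgeR), with log2 fold changes still between 0.60 and 0.79. They held without shXPO7_5 A.

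The other 8 genes overlapped between shXPO7_5 and induced libraries. BUB1 was at 8.96, 10.8 and 7.34 CPM and BUB1B at 7.65, 12.3 and 8.79 CPM, so that library A was the highest in both (log2 fold changes 0.26 ± 0.16 and 0.28 ± 0.15). TTK was at 3.44, 5.35 and 2.32 CPM, with library B the lowest of all 12 (-0.22 ± 0.35, 95% interval -0.98 to 0.53). MAD2L1 was at 13.8, 16.04 and 10.7 CPM (0.05 ± 0.15) and AURKA at 36.65, 34.8 and 36.6 CPM (0.14 ± 0.070, edgeR adjusted p = 0.255). PLK4, NEK2 and PBK had log2 fold changes of -0.09, -0.10 and -0.09. The median over the 10 genes was 0.09, and 6 of 10 were above 0.

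**Figure D2:**
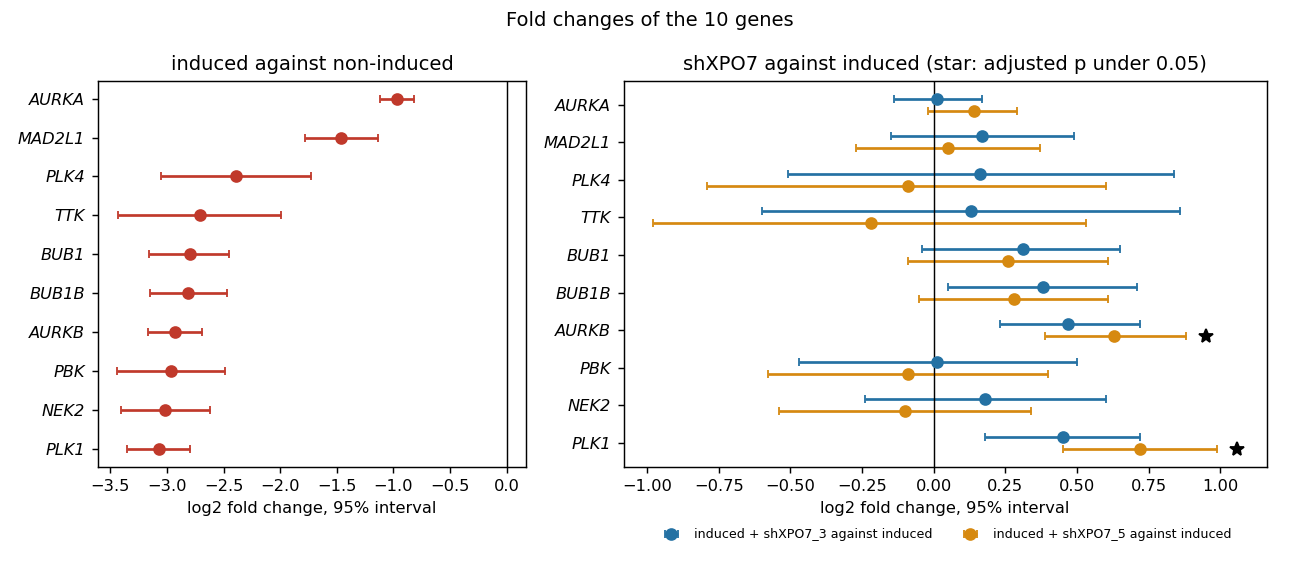
Log2 fold changes of the 10 genes with 95% intervals from edgeR, on the left for induced against non-induced cells and on the right for each XPO7 hairpin against induced cells. All intervals on the left lie below 0; on the right, stars mark AURKB and PLK1 with shXPO7_5, the 2 with an adjusted p under 0.05.

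Taken as the mean of both hairpin groups against the shared induced libraries, AURKB (0.55 ± 0.098, edgeR adjusted p = 0.0311) and PLK1 (0.59 ± 0.11, edgeR adjusted p = 0.0397) were called, where 0.406% of genes tested were called higher. In an exact permutation test of 6 against 3 libraries, both reached p = 0.0238 (two-sided), the smallest this design allows. That test pools libraries of 2 hairpins, which are not replicates of 1 condition. Its p only restates that all 6 lay above all 3 induced libraries. The share of all genes tested with that pattern was not counted, so how unusual it is cannot be said. Both calls of the mean were lost without any 1 induced library, shXPO7_3 T or A, or shXPO7_5 T or B (adjusted p 0.0537 to 0.244, edgeR). Between the hairpins, none of the 10 genes was called, and 0.0131% of genes tested were. PLK1 alone had an unadjusted p under 0.05 (0.27 ± 0.12 higher with shXPO7_5 on the log2 scale, 95% interval 0.00 to 0.53), and AURKB stood at 0.16 (interval -0.07 to 0.40). In either direction, 1819 of 15284 genes tested had an unadjusted p under 0.05 (edgeR) between the hairpins. All shXPO7_5 libraries of AURKB lay above all shXPO7_3 libraries, as did those of AURKA and of 5.54% of genes tested. With GC and length correction the differences were 0.02 for AURKB and 0.10 for PLK1. By mean level the order for AURKB and PLK1 was non-induced, shXPO7_5, shXPO7_3 and induced, and the order of the 2 hairpin groups rests on differences that were not called.

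GC content moved with the shXPO7_5 result. The same correlation of GC content with a library's log ratio to the 12-library mean was 0.69 in shXPO7_5 B, 0.46 in shXPO7_5 T and 0.36 in shXPO7_3 T. It was -0.26 in shXPO7_5 A, -0.49 in shXPO7_3 A and -0.44 in shXPO7_3 B, and -0.38 to -0.19 in the induced libraries. The quartiles of GC content over all genes were 42.2% and 56.3%, and AURKB and PLK1 are the only ones of the 10 above the median of 48.3%. Over the 10 genes, the Spearman correlation of GC content with the log2 fold change of shXPO7_5 was 0.77, and over all genes 0.69. For shXPO7_3 these were 0.55 and 0.11.

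With GC and length trends removed from each library, AURKB and PLK1 were called higher with either hairpin, and BUB1 and MAD2L1 with shXPO7_5. In shXPO7_3, 2 genes were then called higher, AURKB at 0.45 ± 0.10 (edgeR adjusted p = 0.0411) and PLK1 at 0.42 ± 0.092 (edgeR adjusted p = 0.0328), where 1.52% of genes tested were. In shXPO7_5, 4 were called higher, where 1.53% of genes tested were: AURKB at 0.47 ± 0.11, PLK1 at 0.52 ± 0.093, BUB1 at 0.40 ± 0.096 and MAD2L1 at 0.31 ± 0.073. The mean of both hairpins gave 5, with BUB1B (0.41) added, where 2.2% of genes tested were called higher. The values of AURKB and PLK1 in shXPO7_5 were smaller than without the correction, while those of PLK4, NEK2 and PBK turned from below to above 0 (0.20, 0.07 and 0.12). After correction 9 of the 10 genes stood above 0 in shXPO7_5 (TTK at -0.02), and the correlation with GC content was 0.021 over all genes but still 0.58 over the 10. For shXPO7_3 it stayed at 0.55 over the 10. With 1 library left out, the corrected fit called 0 genes in shXPO7_3 for 5 of the 6 libraries and 1 without shXPO7_3 B, and in shXPO7_5 it called 1 gene without induced T or shXPO7_5 T, 2 without induced A or B, 3 without shXPO7_5 A and 4 without shXPO7_5 B.

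**Figure D3:**
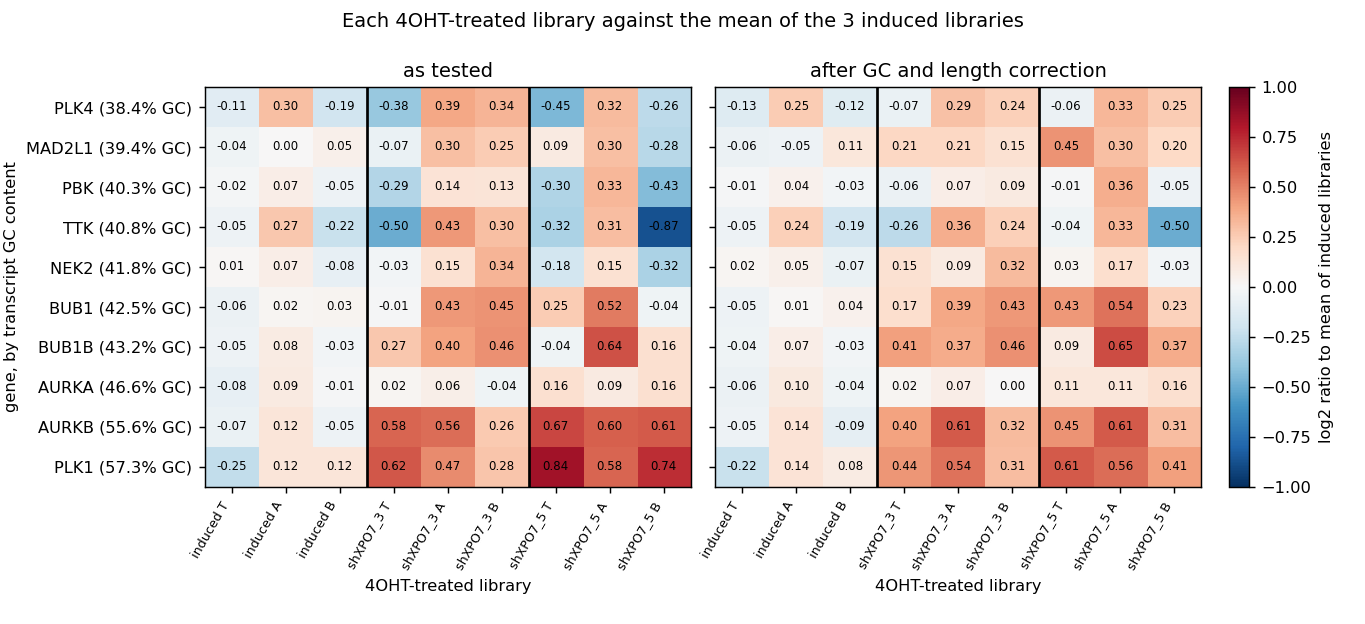
Log2 ratio of each 4OHT library to the mean of the 3 induced libraries, with genes ordered by transcript GC content, before (left) and after (right) correction for GC and length. The T libraries of both hairpins and shXPO7_5 B are below 0 in PLK4, TTK and PBK on the left, and AURKB and PLK1 are above 0 in all 6 hairpin libraries in both panels.

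With either hairpin, the 10 genes stayed below the non-induced level. All 10 were lower than in non-induced cells with shXPO7_3 (26.2% of genes tested were called lower) and with shXPO7_5 (27%), with medians of -2.48 and -2.51 on the log2 scale. PLK1 stood at 16.2% of the non-induced level with shXPO7_3 and at 19.5% with shXPO7_5, AURKB at 18.3% and 20.4%. The largest shares were those of AURKA (51.4% and 56.0%) and MAD2L1 (41.0% and 37.8%).

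In the related lists, 4 of 84 genes tested rose with shXPO7_5 (CDCA8, UBE2C, FOXM1 and MYBL2), beside 0.478% of all genes, and each of them had fallen with RAS. CDCA8, a partner of AURKB, was at 9.21 ± 0.658 CPM with shXPO7_5 against 6.22 ± 0.468 CPM in induced cells (log2 fold change 0.57 ± 0.10, edgeR adjusted p = 0.0324), UBE2C at 10.4 ± 0.406 against 6.85 ± 0.164 CPM (0.60 ± 0.093, edgeR adjusted p = 0.0174). FOXM1 was at 18.3 ± 0.456 against 12.2 ± 0.967 CPM (0.59 ± 0.10, edgeR adjusted p = 0.0265) and MYBL2 at 6.33 ± 0.889 against 3.69 ± 0.372 CPM (0.77 ± 0.14, edgeR adjusted p = 0.0339). Like those of AURKB and PLK1, the 4 calls were lost without any 1 induced library or shXPO7_5 T or B (adjusted p 0.0625 to 0.172, edgeR) and held with GC and length correction. The 4 were also lost with only the groups compared in the fit (adjusted p 0.0779 to 0.105, edgeR). In shXPO7_3 no gene of these lists was called, with FOXM1 at 0.43 and CDCA8 at 0.38 on the log2 scale. Survivin (BIRC5) had 0.57 and 0.66 with the 2 hairpins and CDC20 0.50 and 0.63, and neither was called. With GC and length correction, 6 genes of these lists were called higher in shXPO7_3 (BIRC5, CDCA8, CDC20, UBE2C, PTTG1 and FOXM1; 1.52% of all genes), and 8 in shXPO7_5, the same 6 with MYBL2 and ZWINT (1.53% of all genes). Centriole partners of PLK4 had medians of 0.03 and -0.52 on the log2 scale in shXPO7_3 and shXPO7_5, with no call, and the second was -0.27 with GC and length correction. These comparisons share the induced libraries.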

How the data were processed

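RNA of 12 libraries was extracted with a Qiagen kit and prepared with an Illumina stranded mRNA kit. In the submitters' processing notes, the tools are featureCounts 1.18.0, CASAVA 1.8.4 and TopHat2 2.0.11, and the builds hg19 and GRCh37. The authors deposited 1 table of raw read counts per Ensembl gene (62069 genes and 92 ERCC entries, which held no count), and counts were used as deposited. Symbols were assigned by Ensembl ID. Exon lengths, transcript GC content and gene positions came from GENCODE 29, which is on GRCh38, and promoter sequences from RefSeq (GRCh38.p14). AURKA, TTK and PBK had no promoter window. On that annotation BUB1B shares 457 exon bases with BUB1B-PAK6 on the same strand, and PLK1 595 and MAD2L1 44 bases with genes on the opposite strand.

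R 4.3.3 and edgeR 4.0.16 were used for filterByExpr, TMM, and glmQLFit and glmQLFTest over all 12 libraries with 1 mean per group (15284 genes tested), with Benjamini-Hochberg adjustment and a threshold of 0.05. Standard errors are the log2 fold change over the root of F. Alternatives used DESeq2 1.42.0, sva 3.50.0, other scalings and filters, left-out libraries, and spline trends (5 degrees of freedom) on GC and length removed from each library as offsets (97.3% of genes tested had a GC value). All 10 genes were named, and of each related list the 4 with the largest change under induction, besides the 5 genes most like the mean of the 10 and any gene behind a count of 5 or fewer. The 10 genes and the lists were chosen with earlier results of these data known. Promoter motifs were chosen as known G2/M elements.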

Additional observations from a re-analysis of the deposited data

How the results depend on the processing

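The count of the 10 genes called lower with induction was 10 in every alternative and with each library left out, except 9 when a log2 fold change of at least 1 was also asked for (AURKA then dropped). The comparison of each hairpin with non-induced cells gave 9 or 10 throughout, and that between the hairpins 0 throughout. Calls under knockdown depended on the processing. With only the groups compared in the fit, 0 genes were called in shXPO7_5 and 0 for both hairpins together, where AURKB (adjusted p = 0.0973 and 0.0708, edgeR) and PLK1 (0.0973 and 0.0913) missed the threshold. Upper-quartile scaling gave 0 for the mean of both hairpins but still 2 in shXPO7_5 (AURKB and PLK1). The log2 fold change of at least 1 gave 0 in shXPO7_5 and 0 for that mean. One surrogate variable gave 1, 4 and 4 genes in shXPO7_3, shXPO7_5 and both, GC and length correction gave 2, 4 and 5, and the same with the replicate block 3, 5 and 5. With each library left out, the count was 0 to 2 in shXPO7_5 and 0 to 2 for the mean of both hairpins. With the GC and length correction it was 0 to 1, 1 to 4 and 1 to 4 in shXPO7_3, shXPO7_5 and that mean (chosen after seeing the data). DESeq2 gave 0, 2 and 2. Deviations of same-letter libraries correlated between -0.234 and 0.589, and those of different letters between -0.62 and 0.512. These ranges overlap and do not settle whether the letters mark pairs. The main fit did not treat them as pairs. The replicate block alone gave 1 for the mean of both hairpins (PLK1 lost, adjusted p = 0.0665, edgeR) and changed no other count of the 10 by over 1.5 times. The number of all genes called varied by setting as well. In shXPO7_5, 90 genes were called in either direction in the main fit and 149 with the replicate block. There were 10 with only the groups compared and 2 without induced T. With GC and length correction, 1.52%, 1.53% and 2.2% of genes tested were called higher in shXPO7_3, shXPO7_5 and both. The cause of these shifts was not tested.

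Values that turned sign were not called in either fit. In shXPO7_5, PLK4 was 0.199 with GC and length correction, 0.178 with the block added and 0.064 with a surrogate variable, NEK2 0.066 and 0.059 with the first 2, and PBK 0.122, 0.102 and 0.001. With 1 library left out, the log2 fold change in shXPO7_3 ran from -0.026 to 0.059 for AURKA, from -0.030 to 0.356 for TTK and from -0.062 to 0.137 for PBK. In shXPO7_5 it ran from -0.352 to 0.063 for PLK4, from -0.590 to 0.038 for TTK, from -0.087 to 0.202 for MAD2L1, from -0.248 to 0.007 for NEK2 and from -0.367 to 0.062 for PBK. Of 28 named genes of the related lists, 26 were called under induction, and 25 of these in all 16 alternatives. SASS6 was called in 11 of them and, among others, not with the replicate block (log2 fold change -0.476), and CENPJ and LIN9, not called in the report, in 8 each. Of promoter motifs, the CHR count was 2 with only bases before the start, where 17.2% of all genes had a CHR. Induced libraries hold 59 to 93 counts of NEK2, which limits the precision of small changes.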
